A study of Mus musculus with 2 samples.

Results

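Caveolae are flask-shaped pits of the plasma membrane, and fenestrae are thin pores through endothelial cells. The results concern 9 genes that build or mark these structures: Plvap, Cav1, Cav2, Cavin1, Cavin2, Cavin3, Ehd2, Ehd4 and Emcn. They were chosen by gene symbol and not by their values, and each symbol matched a single row among the 31253 genes of both matrices. Caveolins insert into the membrane and oligomerise, cavins coat the resulting pit from the cytoplasm, and EHD ATPases gather at its neck. PLVAP forms the diaphragms that span caveolae and fenestrae of permeable vessels, while brain capillaries lose it and keep few caveolae as the blood-brain barrier matures. Emcn encodes endomucin, a sialomucin of the endothelial surface that marks veins and capillaries and is commonly used beside PLVAP, although it is not part of a caveola.

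The study isolated cells from mouse brain at stage E12.5 with magnetic beads against CD31, an endothelial surface protein, and sequenced them as single cells in microwells with unique molecular identifiers (UMIs). The Foxq1iECKO group was 1 library, and the Foxq1flox/flox group was 1 library. Foxq1flox/flox denotes homozygous loxP-flanked alleles of Foxq1, a forkhead transcription factor gene of brain endothelium, and iECKO denotes an inducible endothelial-cell knockout of it. The Cre driver, the induction schedule, the number of embryos behind each library and the removed part of Foxq1 were not stated in the labels.

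The Foxq1iECKO library held 15108 barcodes and 72445925 UMIs, and the Foxq1flox/flox library held 15837 barcodes and 76580165 UMIs. Of these barcodes, 270 sequences occurred in both libraries, which is 1.79% of the Foxq1iECKO and 1.71% of the Foxq1flox/flox barcodes. After filters and doublet removal, 12526 Foxq1iECKO and 13399 Foxq1flox/flox cells were used. Although the label calls the samples endothelial cells, only 1604 Foxq1iECKO cells (12.8%) and 2290 Foxq1flox/flox cells (17.1%) fell into clusters led by blood endothelial markers. These are called endothelial-like. Other clusters carried markers of lymphatic endothelium, pericytes, fibroblasts, cartilage, muscle, macrophages, other leukocytes, megakaryocytes, neurons and radial glia. Cluster 1, led by Ibsp, Aldh1a2 and Sp7, stayed unnamed, with 1117 Foxq1iECKO and 1122 Foxq1flox/flox cells. A further 814 Foxq1iECKO and 468 Foxq1flox/flox cells showed endothelial and pericyte markers together and were kept apart as a mixed cluster, as were 111 Foxq1iECKO and 185 Foxq1flox/flox cells with endothelial and erythroid markers. Cells were clustered without the 9 genes among the genes used for clustering. Foxq1 was not removed from those genes, so clusters and barrier shares are not independent of it.

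Levels are CPM, the UMIs of a gene summed over a class and scaled to the total UMIs of that class and library. Because each UMI comes from the 3′ end of a transcript, CPM does not scale with transcript length. With 1 library per genotype no test was possible, and a difference was called by size where the ratio reached 1.5-fold and its exact 95% interval for counting error excluded 1. These intervals say nothing about variation between embryos. The endothelial cadherin gene Cdh5 stood at 892 CPM in Foxq1iECKO and 1031 CPM in Foxq1flox/flox endothelial-like cells. Foxq1 itself stood at 149 CPM in Foxq1iECKO and 444 CPM in Foxq1flox/flox endothelial-like cells, a log2 ratio of -1.58 (95% interval -1.66 to -1.49). Foxq1 RNA was thus reduced and not absent. In barrier cells, defined below, its level was 417.5 CPM in Foxq1iECKO and 920.3 CPM in Foxq1flox/flox (log2 ratio -1.14, -1.24 to -1.04). In the other endothelial-like cells it was 74.4 CPM in Foxq1iECKO and 172 CPM in Foxq1flox/flox (-1.21, -1.35 to -1.07). The intervals of these states overlapped, and the pooled ratio was larger in size than both. The part of the mix of states in the pooled ratio was not tested. The mixed endothelial and pericyte cluster had 583.9 CPM in Foxq1iECKO and 1069 CPM in Foxq1flox/flox (-0.87). Foxq1 ratios of single endothelial subclusters ran from -1.24 in subcluster 0 to 0.32 in subcluster 7, and the counting intervals of subclusters 7 and 8 included 0. In pericyte-like cells, which are not endothelial, the Foxq1 level was 539 CPM in Foxq1iECKO and 612 CPM in Foxq1flox/flox, a log2 ratio of -0.18.

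Positions are those of the GENCODE annotation of the mm10 build. Cav2 (chromosome 6, 17281185 to 17289115, plus strand) lies 17219 bases upstream of Cav1 (chromosome 6, 17306335 to 17341452, plus strand), and the pair encodes the caveolins of non-muscle cells. Cavin3 (chromosome 7, 105480083 to 105482300, minus strand) shares exon sequence with Gm45667 on the opposite strand. The labels do not say whether counting used strand, so reads of these 2 genes cannot be told apart and Cavin3 values are uncertain. Plvap (chromosome 8, 71497765 to 71511752), Cav1, Cav2 and Cavin2 (chromosome 1, 51289126 to 51302960) overlap opposite-strand genes, but no exons are shared. Emcn (chromosome 3, 137341067 to 137432185) and Ehd4 (chromosome 2, 120089175 to 120154606) overlap no annotated gene, and neither do Cavin1 (chromosome 11, 100956733 to 100970887) and Ehd2 (chromosome 7, 15946958 to 15967567).

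Upstream sequence is shown for 3 genes whose levels were lower together in barrier endothelium and for Ehd4, which was not lower there. The RefSeq promoter table (GRCm38.p6) matched 7 of the 9 genes, and each sequence covers 210 bases, from 250 to 41 bases before the RefSeq start, written 5′ to 3′ on the strand of the gene. Capitals mark the letters AGGAAG or their reverse complement CTTCCT, used as a single fixed form of the motif of ETS factors, a family active in endothelium. The Cavin2 sequence is chr1:51288876-51289085 on the plus strand, that of Cav1 is chr6:17306085-17306294 on the plus strand, that of Emcn is chr3:137340828-137341037 on the plus strand, and that of Ehd4 is chr2:120154616-120154825 on the minus strand.
Cavin2: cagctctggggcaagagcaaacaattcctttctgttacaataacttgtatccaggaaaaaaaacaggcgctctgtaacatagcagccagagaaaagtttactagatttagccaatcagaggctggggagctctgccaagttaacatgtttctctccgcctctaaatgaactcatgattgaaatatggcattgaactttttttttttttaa
Cav1: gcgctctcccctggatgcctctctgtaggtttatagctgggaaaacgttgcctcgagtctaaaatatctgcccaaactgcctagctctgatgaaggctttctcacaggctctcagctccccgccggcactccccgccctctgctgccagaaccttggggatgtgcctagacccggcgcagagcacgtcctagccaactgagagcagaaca
Emcn: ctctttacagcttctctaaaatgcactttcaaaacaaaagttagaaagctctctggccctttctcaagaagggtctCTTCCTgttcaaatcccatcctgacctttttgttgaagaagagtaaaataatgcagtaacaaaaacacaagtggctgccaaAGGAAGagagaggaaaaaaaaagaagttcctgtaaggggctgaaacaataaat
Ehd4: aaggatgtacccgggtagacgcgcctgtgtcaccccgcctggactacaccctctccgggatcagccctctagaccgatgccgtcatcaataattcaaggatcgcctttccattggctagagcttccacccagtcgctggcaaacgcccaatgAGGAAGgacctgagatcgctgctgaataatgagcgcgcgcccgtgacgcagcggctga
This ETS form occurred 2 times in the Emcn window and 1 time in that of Ehd4, and it was not found in the windows of the other 5 genes in the table. It was present in 24.95% of 32851 promoter windows of the same length. The forkhead form TGTTTA with its reverse complement TAAACA (10.6% of windows) and the TCF/LEF form CTTTGA with TCAAAG (12.2% of windows) were found in none of the 7 windows. Shorter or other forms of these motifs were not searched. Both strands were searched, and none of these motifs contains another. A match or its absence is a description of the letters only.

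Of the 9 genes, Plvap had the largest share of its UMIs in endothelial-like cells. Its level was 112.8 CPM in Foxq1iECKO and 99.0 CPM in Foxq1flox/flox endothelial-like cells. In lymphatic endothelial-like cells it was 16.3 CPM in Foxq1iECKO and 12.7 CPM in Foxq1flox/flox. In pericyte-like, fibroblast-like and neuron-like cells the Plvap level lay between 0.823 and 3.13 CPM, and pericyte-like cells held only 4 Foxq1iECKO and 3 Foxq1flox/flox UMIs. Endothelial-like cells supplied 70.6% of all Plvap UMIs in the Foxq1iECKO library and 77.6% in the Foxq1flox/flox library, with most of the rest in the mixed clusters.

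Cav1, the structural caveolin, had its highest level in endothelial-like cells, at 578.5 CPM in Foxq1iECKO and 480.7 CPM in Foxq1flox/flox. Lymphatic endothelial-like cells had 149.3 CPM in Foxq1iECKO and 146.6 CPM in Foxq1flox/flox, close to the mixed endothelial and pericyte cluster at 149.5 CPM in Foxq1iECKO and 135.2 CPM in Foxq1flox/flox. The counting intervals of these classes overlapped, so their order is not resolved. Pericyte-like cells had 50.9 CPM in Foxq1iECKO and 59.4 CPM in Foxq1flox/flox, and fibroblast-like cells had 42.3 CPM in Foxq1iECKO and 45.2 CPM in Foxq1flox/flox. Cav2, which reaches the surface in complex with Cav1, stood at 38.3 CPM in Foxq1iECKO and 35.3 CPM in Foxq1flox/flox endothelial-like cells. The mixed endothelial and erythroid cluster had a Cav2 level of 40.1 CPM in Foxq1iECKO and 30.4 CPM in Foxq1flox/flox, with intervals that overlapped those of endothelial-like cells.

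The 3 cavins had different class patterns. Cavin1, the coat protein that caveolae require, was spread across endothelium and mesenchyme, with 142.2 CPM in Foxq1iECKO and 122.5 CPM in Foxq1flox/flox endothelial-like cells. Fibroblast-like cells had a Cavin1 level of 122.4 CPM in Foxq1iECKO and 100.8 CPM in Foxq1flox/flox, and pericyte-like cells one of 76.0 CPM in Foxq1iECKO and 105.6 CPM in Foxq1flox/flox. Endothelial-like cells therefore held only 27.0% of the Cavin1 UMIs of the Foxq1iECKO library and 36.1% of those of the Foxq1flox/flox library. Cavin2, which shapes the coat and was first described in platelets, was highest in megakaryocyte-like cells at 1020 CPM in Foxq1iECKO and 1052 CPM in Foxq1flox/flox. These are few cells, 50 in Foxq1iECKO and 74 in Foxq1flox/flox. Lymphatic endothelial-like cells had a Cavin2 level of 151.9 CPM in Foxq1iECKO and 129.1 CPM in Foxq1flox/flox. Endothelial-like cells had 137.3 CPM in Foxq1iECKO and 104.6 CPM in Foxq1flox/flox. The log2 ratio of endothelial-like over lymphatic endothelial-like cells was -0.15 (-0.31 to 0.02) in Foxq1iECKO. In Foxq1flox/flox it was -0.30 (-0.465 to -0.14), so only there did the interval exclude 0. Both ratios lay inside 1.5-fold. Cavin3, a further coat subunit, was highest in endothelial-like cells, at 180.7 CPM in Foxq1iECKO and 179.5 CPM in Foxq1flox/flox.

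The EHD genes also peaked in different classes. Ehd2, which stabilises caveolae at the surface, was highest in endothelial-like cells at 132.1 CPM in Foxq1iECKO and 116.7 CPM in Foxq1flox/flox. Ehd4, which acts in endosomes as well as at caveolae, was highest in macrophage-like cells at 564.7 CPM in Foxq1iECKO and 529.9 CPM in Foxq1flox/flox. Its endothelial-like level was 142.0 CPM in Foxq1iECKO and 129.4 CPM in Foxq1flox/flox. Macrophage-like cells held 53.5% of all Ehd4 UMIs in the Foxq1iECKO library and 44.2% in the Foxq1flox/flox library, while endothelial-like cells held 13.4% in the Foxq1iECKO library and 20.9% in the Foxq1flox/flox library.

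Emcn reached 642.6 CPM in Foxq1iECKO and 610.3 CPM in Foxq1flox/flox endothelial-like cells but 30.1 CPM in Foxq1iECKO and 38.6 CPM in Foxq1flox/flox lymphatic endothelial-like cells. The lymphatic class thus carried Cav1, Cavin2 and Ehd4 with little Emcn or Plvap. In pericyte-like cells Emcn stood at 136.3 CPM in Foxq1iECKO and 136.9 CPM in Foxq1flox/flox. Endothelial RNA in these cells was measured beside it, since the 14 endothelial markers summed to 11.6% of their endothelial-like level in Foxq1iECKO and 10.9% in Foxq1flox/flox pericyte-like cells. On the same scale, Emcn there was 21.2% of its endothelial-like level in Foxq1iECKO and 22.4% in Foxq1flox/flox, and Plvap was 2.78% in Foxq1iECKO and 2.50% in Foxq1flox/flox. The part of free endothelial RNA in these levels was not tested. Neuron-like cells held 2.10 to 8.97% of the endothelial-like level of each member and 2.69% of the endothelial marker sum in Foxq1iECKO and 3.23% in Foxq1flox/flox.

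**Figure D1:**
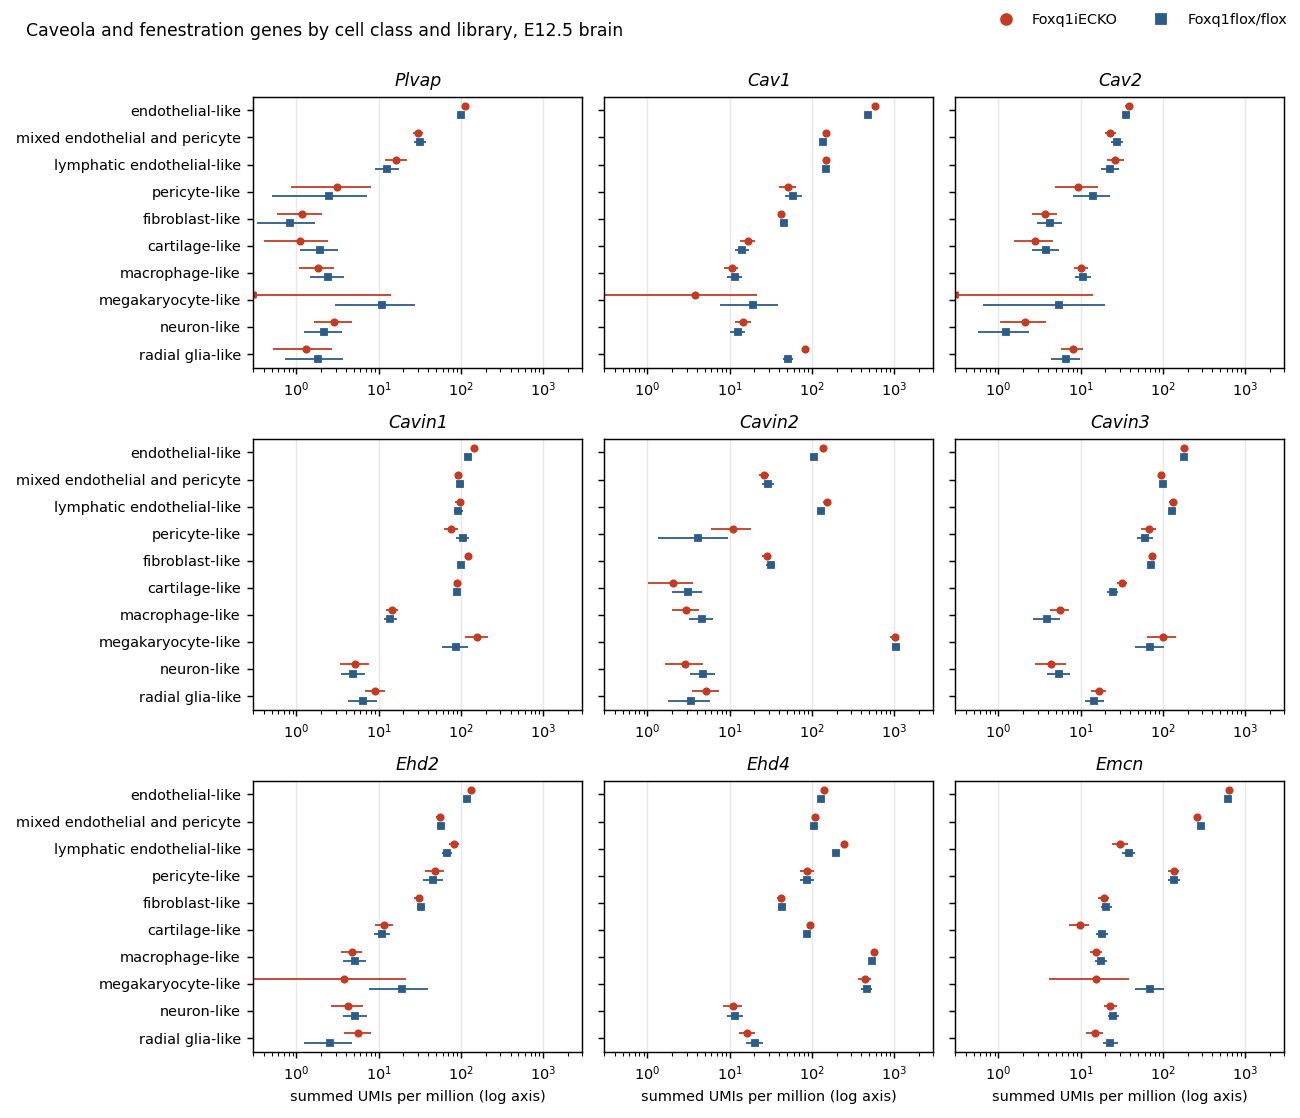
Level of each of the 9 genes (CPM, log axis) in 10 cell classes, as a point per library with its 95% Poisson counting interval. A level of 0 UMIs is drawn as a mark at the left edge. Plvap, Cav1, Emcn and Ehd2 peak in endothelial-like cells, Cavin2 peaks in megakaryocyte-like cells at 1020 CPM in Foxq1iECKO and 1052 CPM in Foxq1flox/flox, and Ehd4 peaks in macrophage-like cells.

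Within the endothelial-like cells, 9 subclusters were separated. Subclusters 0 (led by Apod, Slc38a5 and Synm) and 5 (led by Fam13a, Cxcl12 and Slco1c1, with arterial markers) carried most markers of barrier endothelium and are called barrier. They held 408 Foxq1iECKO cells (25.4% of endothelial-like cells) and 803 Foxq1flox/flox cells (35.1%). Subcluster 2 was arterial, led by Gja5 and Dkk2, and subcluster 4 was cycling. Subcluster 8, with barrier markers but leading genes of arteries (30 Foxq1iECKO and 76 Foxq1flox/flox cells), stayed unnamed and was counted with the others, as did subclusters 1, 3, 6 and 7.

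The Cav1 level differed widely among these states. It was highest in the arterial subcluster 2, at 906.9 CPM in Foxq1iECKO and 926.2 CPM in Foxq1flox/flox, and lowest in subcluster 0, at 176.8 CPM in Foxq1iECKO and 161.2 CPM in Foxq1flox/flox. Barrier subcluster 5, with arterial genes, stood between them at 222.5 CPM in Foxq1iECKO and 314.3 CPM in Foxq1flox/flox, and subcluster 8 was higher again at 437.1 CPM in Foxq1iECKO and 431.5 CPM in Foxq1flox/flox. The caveola genes Cavin1, Cavin2, Cavin3 and Ehd2 also had their highest levels in subclusters 2 or 3. Emcn and Cav1 did not share their peak. Emcn was highest in subcluster 6, led by the interferon-response genes Gbp2 and Iigp1, at 963.5 CPM in Foxq1iECKO and 1004 CPM in Foxq1flox/flox. It was lowest in subcluster 8, at 211 CPM in Foxq1iECKO and 255.8 CPM in Foxq1flox/flox.

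**Figure D2:**
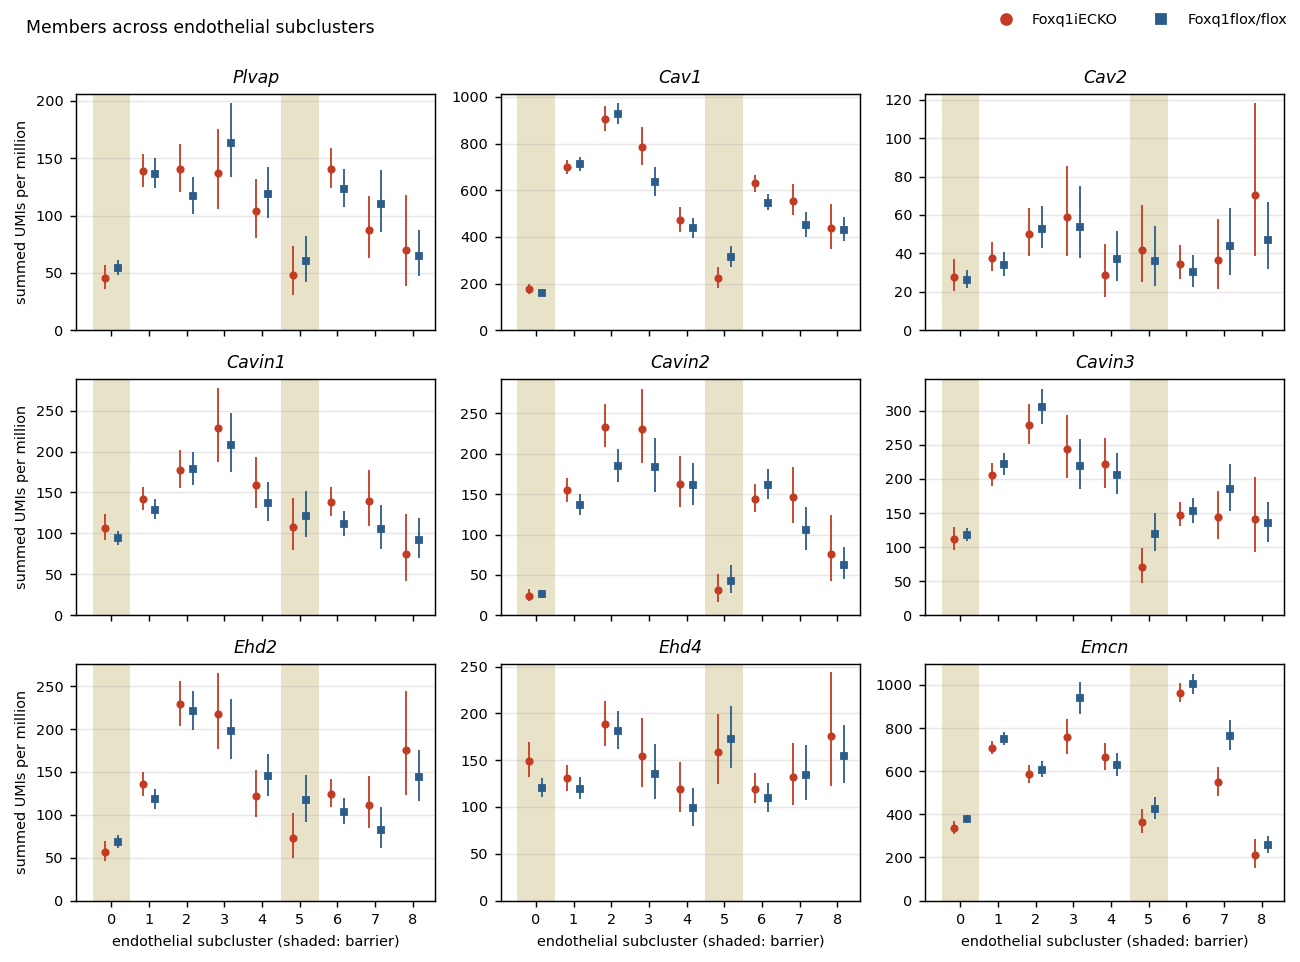
Level of each gene (CPM, linear axis from 0) in the 9 endothelial subclusters, as a point per library with its 95% Poisson counting interval, barrier subclusters shaded. Cav1 is highest in the arterial subcluster 2 and lowest in the barrier subcluster 0, while Ehd4 shows no step between shaded and other subclusters.

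In 4 of the 9 genes, Plvap, Cav1, Cavin2 and Cavin3, the 4 barrier values (2 subclusters in 2 libraries) all lay below the 14 values of the other subclusters. That held for 0.221% of 8605 genes. Cavin2 ranged from 24.4 to 42.6 CPM over the barrier values and from 62.1 to 233.4 CPM over the others, and Plvap from 45.2 to 60.01 CPM over the barrier values and from 65.1 to 163.5 CPM over the others. For Emcn only subcluster 8 broke the separation. The Ehd2 values overlapped, with 57.1 to 116.9 CPM in barrier and 82.6 to 228.8 CPM in other subclusters.

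Pooled over subclusters, 6 of the 9 genes had a lower level in barrier than in other endothelial cells of both libraries, by at least 1.5-fold. At a threshold of 2-fold, 5 genes passed in Foxq1iECKO (Cavin2, Cav1, Plvap, Ehd2 and Emcn) and 3 in Foxq1flox/flox (Cavin2, Cav1 and Plvap). The background for the 1.5-fold call in the lower direction was 7.46% of genes in Foxq1iECKO and 7.05% in Foxq1flox/flox. No background was computed at 2-fold. The median log2 ratio of barrier over other was -1.08 for the 9 genes against 0.00 for all genes in Foxq1iECKO, and -0.94 against -0.03 in Foxq1flox/flox. The subclusters were made from other genes of the same cells, so these values describe the states and are no test of them.

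Cavin2 differed most. In Foxq1iECKO it had 25.8 CPM in barrier and 168.2 CPM in other endothelial cells, a log2 ratio of -2.71 (-3.12 to -2.32). In Foxq1flox/flox it had 28.2 CPM in barrier and 148.3 CPM in other endothelial cells, a log2 ratio of -2.40 (-2.64 to -2.16). In both libraries the barrier level was more than 5-fold below the other. Cav1 had 186.5 CPM in barrier and 687.4 CPM in other cells of Foxq1iECKO, 3.69-fold lower in barrier, and 178.6 CPM in barrier and 653.2 CPM in other cells of Foxq1flox/flox, 3.66-fold lower. Plvap, the diaphragm gene, had 45.9 CPM in barrier and 131.4 CPM in other cells of Foxq1iECKO and 55.0 CPM in barrier and 124.1 CPM in other cells of Foxq1flox/flox. Its log2 ratios were -1.52 (-1.83 to -1.22) in Foxq1iECKO and -1.17 (-1.36 to -0.99) in Foxq1flox/flox. Thus Plvap was lower in barrier cells at this stage but far above its level in neuron-like cells, which was 2.88 CPM in Foxq1iECKO and 2.19 CPM in Foxq1flox/flox.

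Ehd2, Emcn and Cavin3 were lower in barrier cells by smaller amounts. The log2 ratio of Ehd2 was -1.33 in Foxq1iECKO and -0.94 in Foxq1flox/flox, that of Emcn -1.08 in Foxq1iECKO and -0.94 in Foxq1flox/flox, and that of Cavin3 -0.97 in Foxq1iECKO and -0.86 in Foxq1flox/flox. The remaining genes stayed inside 1.5-fold. Cavin1 had a log2 ratio of -0.51 (-0.72 to -0.30) in Foxq1iECKO and -0.49 (-0.64 to -0.35) in Foxq1flox/flox, and Cav2 had -0.38 in Foxq1iECKO and -0.54 in Foxq1flox/flox. Ehd4 was nearly level, at 151.3 CPM in barrier and 139.4 CPM in other cells of Foxq1iECKO and at 126.4 CPM in barrier and 131.2 CPM in other cells of Foxq1flox/flox. The cavins thus ran from Cavin2, lowest in barrier cells relative to the others, to Cavin1, with the smallest difference of the 3.

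Markers of other cell types were measured beside these ratios. The 12 pericyte markers summed to 437.6 CPM in barrier and 224.7 CPM in other cells of Foxq1iECKO, and to 291.9 CPM in barrier and 201.2 CPM in other cells of Foxq1flox/flox. They summed to 12460 CPM in Foxq1iECKO and 11420 CPM in Foxq1flox/flox pericyte-like cells, in which Cavin2 stood at 10.97 CPM in Foxq1iECKO and 4.12 CPM in Foxq1flox/flox. Of the 12 markers, Des was at 0 in the barrier cells of both libraries. The part of pericyte RNA in the ratios was not tested.

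**Figure D3:**
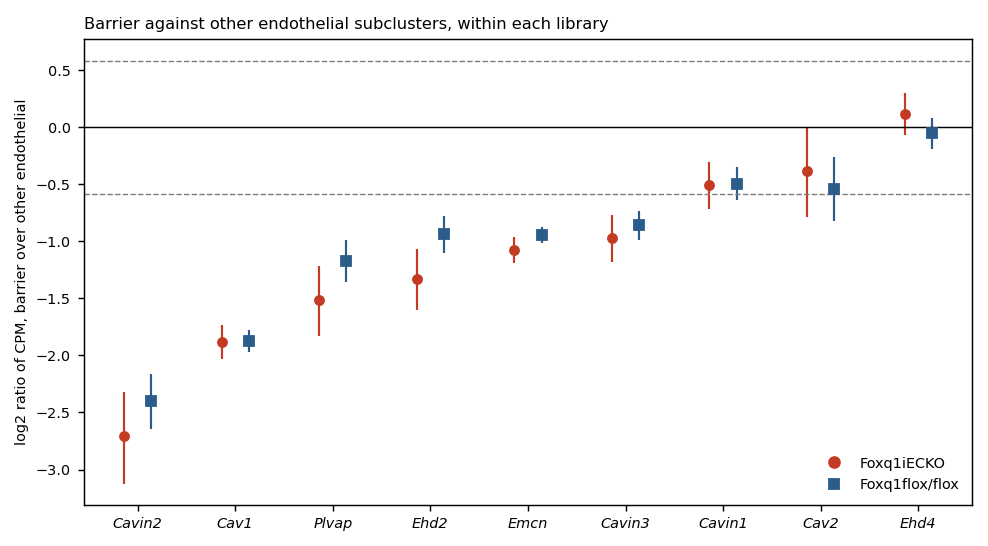
Log2 ratio of CPM in barrier over other endothelial cells for each gene, as a point per library with its exact 95% counting interval. Cavin2 lies lowest, at -2.71 in Foxq1iECKO and -2.40 in Foxq1flox/flox, and Ehd4 lies at 0.12 in Foxq1iECKO and -0.05 in Foxq1flox/flox.

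Other genes of vesicle traffic, taken from 5 lists of 68 genes, did not follow this pattern as a group. Of 49 list genes measured in Foxq1iECKO (10 CPM or more in either state), 19 were higher and 7 lower in barrier cells, and of 47 in Foxq1flox/flox, 10 were higher and 6 lower. Over all genes at that level, 20.1% were called in either direction in Foxq1iECKO and 17.6% in Foxq1flox/flox. Individual genes below that lie outside the naming rule were chosen after their values were seen. Among accessory genes of caveolae, Dnm3, a dynamin, was higher in both libraries, by a log2 ratio of 1.97 in Foxq1iECKO and 1.28 in Foxq1flox/flox. Dnm2, the ubiquitous dynamin that cuts vesicles free, was higher and Ehd1, an EHD gene of endosomes, lower by the size rule in Foxq1iECKO, and neither passed it in Foxq1flox/flox, a difference that was not tested. Pacsin2, a membrane-bending partner of caveolae, had log2 ratios of 0.05 in Foxq1iECKO and -0.02 in Foxq1flox/flox.

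The clathrin list had 6 of 15 genes higher in Foxq1iECKO and 2 of 15 in Foxq1flox/flox barrier cells, with none lower. The clathrin heavy chain Cltc had 935.2 CPM in barrier and 854.0 CPM in other cells of Foxq1iECKO, and 920.3 CPM in barrier and 785.4 CPM in other cells of Foxq1flox/flox. The adaptor gene Picalm also stayed within 1.5-fold. Tfrc, the transferrin receptor taken up through clathrin pits, had log2 ratios of 3.48 in Foxq1iECKO and 2.81 in Foxq1flox/flox, but it is among the markers that named the barrier state. Insr, the insulin receptor gene, was higher in both libraries.

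In the list of caveolar signalling and transcytosis receptors, Cd36, a fatty acid receptor found in caveolae, had 3.75 CPM in barrier and 105.1 CPM in other cells of Foxq1iECKO, and 3.41 CPM in barrier and 83.9 CPM in other cells of Foxq1flox/flox. Its log2 ratios of -4.81 in Foxq1iECKO and -4.62 in Foxq1flox/flox exceeded those of all 9 members in size. The other called genes of this list were higher in barrier cells, 6 of 9 in Foxq1iECKO and 4 of 8 in Foxq1flox/flox. They included Nos3, the endothelial nitric oxide synthase that binds caveolin, with 1.15 in Foxq1iECKO and 0.71 in Foxq1flox/flox on the log2 scale. Mfsd2a, a lipid transporter known to hold down caveolar transcytosis, was higher too but is a barrier marker used for naming. Kdr, a VEGF receptor, was called higher in Foxq1iECKO with a log2 ratio of 0.59 and stayed inside 1.5-fold in Foxq1flox/flox at 0.48. Kdr and Flt1, which was higher in both libraries, are also endothelial markers of the naming lists, and Scarb1, a lipoprotein receptor gene, was higher in both. Src was higher in Foxq1iECKO.

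In the list for fenestrated and peripheral vessels, 5 of 13 genes were lower in barrier cells of each library: Meox1 and Meox2, homeobox genes, Igfbp3 and Igfbp5, which bind insulin-like growth factors, and Nrp2, a co-receptor of veins and lymphatics. Igfbp3 had log2 ratios of -1.66 in Foxq1iECKO and -1.81 in Foxq1flox/flox. Nrp1 stayed inside 1.5-fold, at 0.23 in Foxq1iECKO and -0.15 in Foxq1flox/flox. Tbx3 was higher in both libraries, with Exoc3l2 in Foxq1iECKO and Exoc3l in Foxq1flox/flox. Of 6 sialomucin and glycocalyx genes, Cd34 was higher in barrier cells by 0.61 in both libraries on the log2 scale, a direction opposite to that of the sialomucin gene Emcn. Podxl and Sdc3 were higher in Foxq1iECKO, and Mcam and Cd164 stayed within 1.5-fold.

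Shares of cells with a UMI gave the same picture at equal depth. Cells were thinned to 2000 UMIs, which left out 93 barrier and 225 other cells of Foxq1iECKO and 128 barrier and 233 other cells of Foxq1flox/flox. Cavin2 was then detected in 4.13% of barrier and 24.7% of other cells of Foxq1iECKO, and in 5.19% of barrier and 21.9% of other cells of Foxq1flox/flox. Cav1 was detected in 32.7% of barrier and 65.1% of other cells of Foxq1iECKO, and in 25.9% of barrier and 61.2% of other cells of Foxq1flox/flox. The exact binomial intervals of barrier and other cells did not overlap for either gene. In all they lay apart, lower in barrier cells, for 6 of the 9 genes in Foxq1iECKO and 7 in Foxq1flox/flox. Thinned shares were not computed for all genes, so this count has no background. Plvap was detected in 8.25% of barrier and 21.3% of other cells of Foxq1iECKO, and in 10.4% of barrier and 20.7% of other cells of Foxq1flox/flox. In thinned neuron-like cells, taken as the background, Plvap was detected in 0.520% of Foxq1iECKO and 0.166% of Foxq1flox/flox cells. Free RNA itself was not measured. Before thinning, neuron-like cells had median depths of 3264 UMIs in Foxq1iECKO and 3263 UMIs in Foxq1flox/flox. Barrier cells had median depths of 3376 UMIs in Foxq1iECKO and 4554 UMIs in Foxq1flox/flox, and other endothelial cells had 4140 UMIs in Foxq1iECKO and 4092 UMIs in Foxq1flox/flox. Without thinning, Cavin2 was detected in 10.8% of barrier and 41.7% of other cells of Foxq1iECKO, and in 15.3% of barrier and 38.7% of other cells of Foxq1flox/flox. The unthinned share for Plvap was 17.6% of barrier and 43.0% of other cells of Foxq1iECKO, and 25.3% of barrier and 42.2% of other cells of Foxq1flox/flox. The order of barrier and other cells was thus the same at both depths. For Ehd4 the shares were 22.5% of barrier and 23.9% of other cells of Foxq1iECKO, and 21.2% of both in Foxq1flox/flox.

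**Figure D4:**
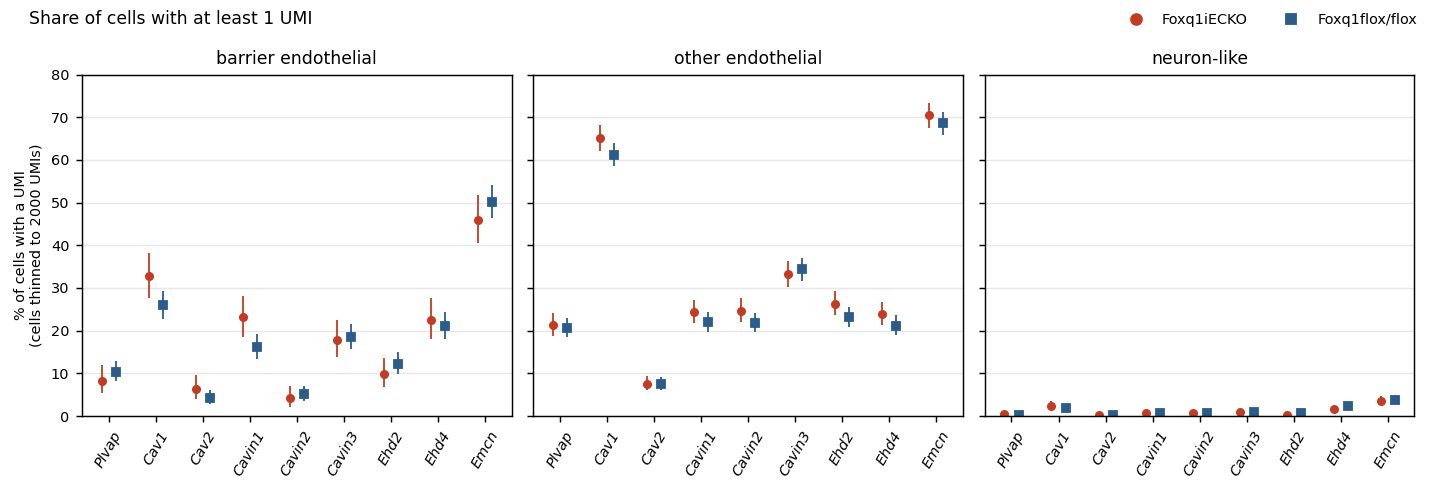
Share of cells with at least 1 UMI of each gene after thinning to 2000 UMIs, in barrier endothelial, other endothelial and neuron-like cells, as a point per library with its exact 95% binomial interval. Cav1 and Emcn are detected in most other endothelial cells, and all 9 genes lie near 0 in neuron-like cells, at up to 3.46% in Foxq1iECKO and 3.87% in Foxq1flox/flox.

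A thinned barrier cell held on average 1.71 of the 9 genes in Foxq1iECKO and 1.64 in Foxq1flox/flox, and another endothelial cell held 2.97 in Foxq1iECKO and 2.81 in Foxq1flox/flox. Detection of 2 genes in the same cell was set beside this. Among endothelial-like cells, 7 of 36 gene pairs in Foxq1iECKO and 13 of 36 in Foxq1flox/flox were co-detected, meaning that a gene had a UMI more often in cells with its partner than in cells without it and the intervals did not overlap. At 1000 UMIs per cell there were 5 such pairs in each library. Pairs drawn from all genes were not counted, so these counts have no background. Endothelial-like cells pool barrier and other cells, and the part of this mix in the counts was not tested. Cav1 and Cavin2 kept this relation inside the other endothelial cells. There, Cavin2 was detected in 29.4% of cells with Cav1 and 15.9% of cells without it in Foxq1iECKO, and in 27.6% of cells with Cav1 and 12.8% of cells without it in Foxq1flox/flox. Across endothelial-like cells, those with a UMI of the barrier gene Mfsd2a had Cav1 less often, in 30.8% against 58.6% of cells without it in Foxq1iECKO and in 29.3% against 50.6% in Foxq1flox/flox. Within barrier cells the intervals for Cav1 with and without Mfsd2a overlapped in both libraries.

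Across 18 classes and subclusters in 2 libraries (36 points that share libraries, log2 CPM with 5 added), Emcn and Plvap had the most similar pattern of any member pair, with a Pearson r of 0.96. Cav1 followed Plvap at 0.93, Ehd2 at 0.93 and Cav2 at 0.93. Coefficients of Ehd4 with the other members ran from 0.17 with Cav1 to 0.49 with Cavin2, and those of Cavin2 from 0.44 with Cav2 to 0.68 with Cavin3. Among non-members, the genes most like Plvap were C130074G19Rik (0.97), Robo4 (0.97), a receptor of endothelium, and Enpp3 (0.96). Enpp3 was also the gene most like Cav1 (0.94), and C130074G19Rik the gene most like Emcn (0.96). Cavin2 was most like Ipo11 (0.89) and Cavin1 most like Ppic (0.94). For Cav2 it was Npr1 (0.95), for Cavin3 Pgm2 (0.92), for Ehd2 Col4a1 (0.94), a basement membrane collagen, and for Ehd4 Anxa7 (0.89). These coefficients describe the classes and carry no test.

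The main genotype comparison set the 9 genes of the Foxq1iECKO library against those of the Foxq1flox/flox library. In pooled endothelial-like cells none of the 9 genes was called, where 1.43% of 6227 genes were. All 9 were nevertheless above 0, with a median log2 ratio of Foxq1iECKO over Foxq1flox/flox of 0.18 against -0.02 for all genes. Cavin2 had the largest ratio, 0.39 (0.29 to 0.50), followed by Cav1 at 0.27 (0.22 to 0.32) and Cavin1 at 0.22 (0.11 to 0.32). Plvap had 0.19 (0.08 to 0.30), Ehd2 0.18, Ehd4 0.13, Cav2 0.12, Emcn 0.07 and Cavin3 0.01. Every one of these lay under 1.5-fold.

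Inside the endothelial states the values were nearer to 0 or spread to both sides of it. In barrier cells, 4 genes lay above and 5 below 0 with a median of -0.13, and none was called, where 3.23% of genes were. Cav1 had 186.5 CPM in Foxq1iECKO and 178.6 CPM in Foxq1flox/flox barrier cells, a log2 ratio of 0.06 (-0.11 to 0.23). Its ratio was 0.13 (-0.06 to 0.33) in barrier subcluster 0 and -0.50 (-0.86 to -0.15) in barrier subcluster 5. The part of the mix of these subclusters in the barrier ratios was not tested. For Plvap the barrier ratio was -0.26 (-0.61 to 0.07), for Emcn -0.16 (-0.28 to -0.04) and for Ehd4 0.26 (0.07 to 0.45). In other endothelial cells 7 genes lay above and 2 below 0 with a median of 0.08, and none was called, where 0.920% of genes were. There Cav1 had 0.07 (0.02 to 0.13), Cavin2 0.18 (0.07 to 0.29) and Plvap 0.08 (-0.04 to 0.20).

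The share of barrier cells among endothelial-like cells, given above, was lower in Foxq1iECKO, and these cells have lower levels of 6 of the genes. The part of this share in the pooled ratios was not tested. With equal weights for all subclusters, the pooled median was 0.08, and Plvap, Cavin3 and Emcn lay below 0. When the mixed endothelial and pericyte cluster was added to the pool, the median turned to -0.06, with Plvap at -0.12 and Emcn at -0.16. With a gate on marker UMIs per cell in place of clusters, the median was 0.10. The direction of the pooled values thus differed with which endothelial cells were counted. The gate, the equal weights and the added mixed cluster were alternatives to the same comparison.

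**Figure D5:**
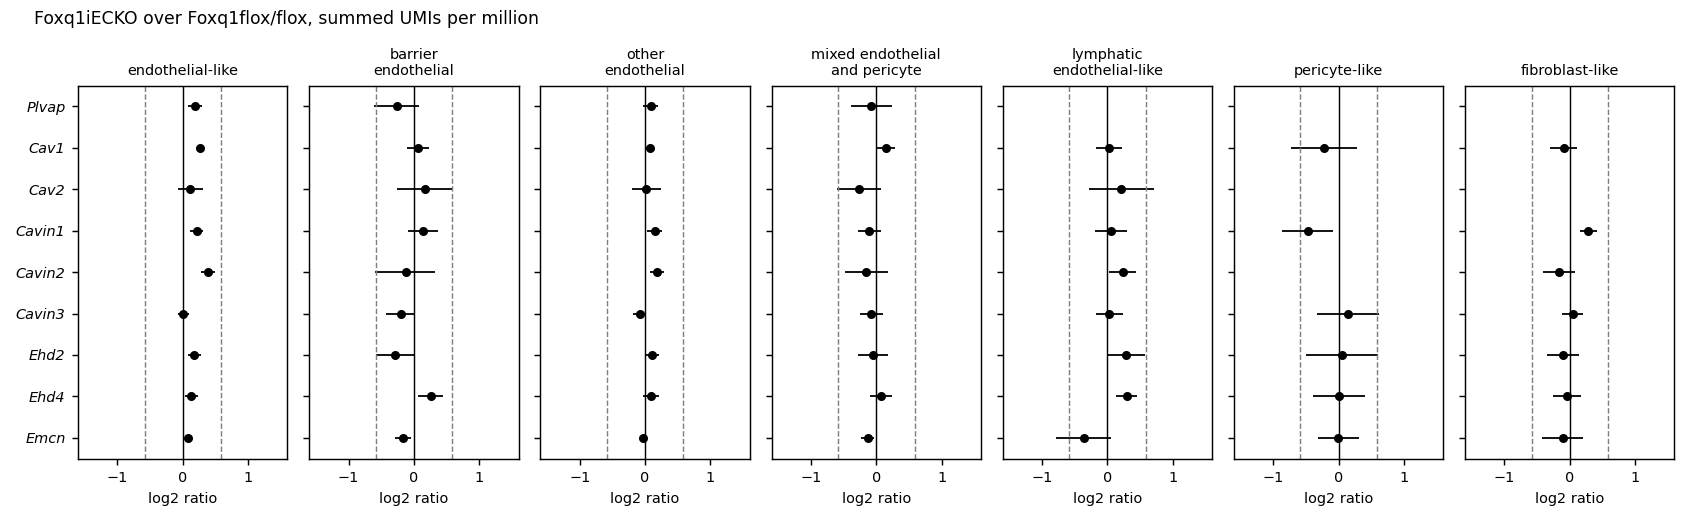
Log2 ratio of CPM in Foxq1iECKO over Foxq1flox/flox for each gene in 7 cell groups, with exact 95% counting intervals; dashed lines mark 1.5-fold. No gene passes 1.5-fold in the endothelial groups, where the pooled median is 0.18 and the barrier median is -0.13.

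In the mixed endothelial and pericyte cluster, 2 genes lay above and 7 below 0, and none was called, where 0.918% of genes were. Cav1 had 149.5 CPM in Foxq1iECKO and 135.2 CPM in Foxq1flox/flox there, and Plvap 30.0 CPM in Foxq1iECKO and 31.6 CPM in Foxq1flox/flox.

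Of the other traffic genes, 47 of 68 were measured in pooled endothelial-like cells. Cd36 was called higher, with 83.1 CPM in Foxq1iECKO and 54.6 CPM in Foxq1flox/flox (log2 ratio 0.61, 0.46 to 0.75), and Mfsd2a lower, with 24.0 CPM in Foxq1iECKO and 44.1 CPM in Foxq1flox/flox (-0.87, -1.09 to -0.66). Over all genes at 10 CPM or more, 1.05% were called higher and 0.985% lower. Both genes differ between barrier and other cells, as described above, and the part of the barrier share in their ratios was not tested. Tfrc had 523.9 CPM in Foxq1iECKO and 767.4 CPM in Foxq1flox/flox, just inside 1.5-fold. List medians lay between -0.23 and 0.05.

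In lymphatic endothelial-like cells 8 of the 9 genes reached 20 CPM, and none was called, where 2.56% of genes were. Ehd4 had 242.5 CPM in Foxq1iECKO and 197.5 CPM in Foxq1flox/flox, a log2 ratio of 0.30 (0.13 to 0.46), and Cavin2 had 0.23 (0.03 to 0.44). In pericyte-like cells, 6 genes reached 20 CPM and none was called, where 5.66% of genes were. Cavin1 was nearest to the threshold, at -0.47 (-0.87 to -0.08), while Ehd4, Emcn and Ehd2 lay within 0.05 of 0. Fibroblast markers summed to 4575 CPM in Foxq1iECKO and 6364 CPM in Foxq1flox/flox pericyte-like cells, the same direction as Cavin1, and their part in its ratio was not tested. In fibroblast-like cells 7 genes reached 20 CPM and none was called, where 2.86% of genes were. Cavin1 there had 0.28 (0.15 to 0.41), and fibroblast markers summed to 23180 CPM in Foxq1iECKO and 18420 CPM in Foxq1flox/flox fibroblast-like cells, the same direction as Cavin1. Their part in its ratio was not tested. In fibroblast cluster 3 Cavin1 had 125.3 CPM in Foxq1iECKO and 106.1 CPM in Foxq1flox/flox. Cluster 10 had 61.6 CPM in Foxq1iECKO and 49.0 CPM in Foxq1flox/flox, and cluster 14 had 174.8 CPM in Foxq1iECKO and 154.0 CPM in Foxq1flox/flox, and in both of these clusters the interval of the ratio included 0.

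Over 11 named classes with at least 50 cells in each library, 52 combinations of gene and class reached 20 CPM in either library, and 6 were called. None of these 6 was in an endothelial, pericyte-like or fibroblast-like class. A joint background was not computed for this count, and the share of called genes is given class by class. Single clusters and subclusters were outside this count, and no background share was computed for them. In barrier subcluster 5, Cavin3 was lower by the same rule, with a log2 ratio of -0.77 (-1.41 to -0.15). Ehd2 was lower there too, at -0.69 (-1.32 to -0.07). In fibroblast cluster 10, Cavin3 was higher, at 0.61 (0.10 to 1.14). No member was called in cartilage-like cells (background 2.21%), macrophage-like cells (1.91%) or neuron-like cells (4.90%). In skeletal muscle-like cells (9.31%) Cavin2 was higher, with 104.4 CPM in Foxq1iECKO and 50.5 CPM in Foxq1flox/flox, and in leukocyte-like cells (3.37%) Cavin2 was lower, with 14.8 CPM in Foxq1iECKO and 23.4 CPM in Foxq1flox/flox. In megakaryocyte-like cells (8.95%), Cavin1 was higher, with 156.6 CPM in Foxq1iECKO and 87.0 CPM in Foxq1flox/flox, and Emcn was lower, with 4 UMIs in Foxq1iECKO and 26 UMIs in Foxq1flox/flox. Endothelial markers summed to 1001 CPM in Foxq1iECKO and 1704 CPM in Foxq1flox/flox megakaryocyte-like cells, the same direction as Emcn, and pericyte markers to 546.3 CPM in Foxq1iECKO and 127.7 CPM in Foxq1flox/flox. Their part in both ratios was not tested. The small muscle and megakaryocyte classes have high backgrounds for such calls. The unnamed cluster 1 was outside the count of named classes. Cavin3 was higher there by the same rule, with 47.3 CPM in Foxq1iECKO and 30.0 CPM in Foxq1flox/flox. Its log2 ratio was 0.66 (0.35 to 0.97), and no background was computed for that cluster.

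The largest named class with calls was the radial glia-like one, neural progenitors in which 2.55% of genes were called. Cav1 was higher there, with 83.0 CPM in Foxq1iECKO and 51.7 CPM in Foxq1flox/flox, a log2 ratio of 0.68 (0.44 to 0.93). After thinning, Cav1 was detected in 11.5% of Foxq1iECKO and 8.30% of Foxq1flox/flox radial glia-like cells, with overlapping intervals of 9.46 to 13.8% and 6.48 to 10.4%. Both shares exceed those of neuron-like cells, 2.42% in Foxq1iECKO and 1.88% in Foxq1flox/flox. In radial glia-like cluster 8, led by Pax6, the Cav1 level was 120.6 CPM in Foxq1iECKO and 69.9 CPM in Foxq1flox/flox. In cluster 13, led by Ttr, it was 26.8 CPM in Foxq1iECKO and 19.9 CPM in Foxq1flox/flox. Endothelial markers summed to 148 CPM in Foxq1iECKO and 232 CPM in Foxq1flox/flox radial glia-like cells, a difference in the direction opposite to that of Cav1. Emcn was called lower in this class, with 14.9 CPM in Foxq1iECKO and 22.99 CPM in Foxq1flox/flox, the same direction as the endothelial marker sum. These levels were at or below those of neuron-like cells, 23.1 CPM in Foxq1iECKO and 25.0 CPM in Foxq1flox/flox. The part of endothelial RNA in the Cav1 and Emcn ratios was not tested.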

How the data were processed

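Single-cell RNA was measured in 2 libraries, 1 per genotype, grouped by the genotype labels. The authors deposited raw UMI counts, with no scaling. Per the submitters' processing notes, fastp 0.24.0, STARsolo 2.7.11b and the build mm10 were used. The settings, barcode filter and use of strand were not stated there. Per the labels' protocols, tissue was digested with enzymes, which can change the mix of cells recovered, and sorted with CD31 microbeads.

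The cell filter required 500 genes and 1000 UMIs per barcode and allowed 20% mitochondrial UMIs. Doublets were called per library with Scrublet in scanpy 1.11.5 at an expected rate of 8% and removed, 582 in Foxq1iECKO and 534 in Foxq1flox/flox. Both libraries were clustered together with the Leiden method (leidenalg 0.10.2) on 2000 variable genes and 30 principal components, at resolution 1, and endothelial-like cells again at 0.6. A cluster was named from at least 3 markers at 50 or more CPM and 2-fold above the other cells, and stayed unnamed where its 10 leading genes held more markers of another list. Classes under 50 cells in a library were not compared, which left out neural crest-like cells. The median cell held 3660 UMIs in Foxq1iECKO and 3836 UMIs in Foxq1flox/flox.

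UMIs were summed per class and library. Levels have exact Poisson intervals, ratios exact conditional binomial intervals and shares exact binomial (Clopper-Pearson) intervals, all at 95% and for counting error only (scipy 1.17.1). Genes at 20 or more CPM in either library entered a comparison, and genes of the 5 lists at 10 or more CPM. The rule for calls by size was tried on simulated counts for pooled endothelial-like and barrier cells, with counting error only. Up to 3 genes per list were named, those called in pooled endothelial-like cells first and then the most abundant, besides others said to be chosen after their values were seen. The 9 genes, the lists and the markers were chosen with earlier results of these data known. Alternatives covered scaling by edgeR 4.0.16 and DESeq2 1.42.0, cell filters, doublets, clustering, weights, thresholds and which clusters were counted.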

Additional observations from a re-analysis of the deposited data

Results flagged for a closer look

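Among named classes of at least 50 cells in each library, and at 20 or more CPM, Cavin1 and Cavin2 had log2 ratios of Foxq1iECKO over Foxq1flox/flox with counting intervals on opposite sides of 0 in different cell classes. For Cavin1 the ratio was -0.47 in pericyte-like cells, against 0.28 in fibroblast-like, 0.85 in megakaryocyte-like and 0.15 in other endothelial cells. For Cavin2 it was -0.65 in leukocyte-like cells, against 0.23 in lymphatic endothelial-like, 1.05 in skeletal muscle-like and 0.18 in other endothelial cells. With 1 library per genotype, the differences between classes were not tested. Pooled endothelial-like cells and both mixed clusters were left out of this comparison. With them, Emcn (0.07 in pooled endothelial-like cells, -0.63 in radial glia-like and -2.21 in megakaryocyte-like cells) and Cavin3 (0.39 in cartilage-like cells, -0.29 in the mixed endothelial and erythroid cluster) also lay on both sides of 0.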

How the results depend on the processing

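Of 666 log2 ratios of the 9 genes recomputed under alternatives, 623 stayed inside the counting interval of the reported value and 43 lay outside it. Among them, the 2-fold threshold and the dropped CPM minimum gave 58 ratios each that could not move. With the mixed endothelial and pericyte cluster added, 8 of 9 pooled ratios lay outside, and with both mixed clusters 7 of 9 did. No called ratio changed sign, but only ratios of barrier over other cells were called. Genotype ratios could thus not enter that count, and some pooled ones changed sign, as given above. With a 2-fold threshold, 3 genes instead of 6 were lower in barrier than in other endothelial cells of Foxq1flox/flox, and 2 combinations of gene and class were called instead of 6, the threshold itself being what changed. No background share was computed at 2-fold. Thinning to 1000 UMIs gave 5 co-detected pairs in Foxq1flox/flox instead of 13, and the cause was not tested. The subcluster with barrier and arterial genes was left out or counted as barrier, the collagen and macrophage subcluster left out, both mixed clusters added, and the weights within barrier and other cells and the settings for class pairs changed, as alternatives chosen after seeing the data. The stricter cell filter was applied to the existing cell names. No paired analysis was possible because each genotype was 1 library. Depth limits Plvap, Cav2 and Cavin2 in pericyte-like cells, where between 3 and 17 UMIs of each were counted per library.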
